A study of Mus musculus with 10 samples.

Results

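The genes described here handle zinc, copper and iron in mouse dendritic cells: the metallothioneins Mt1 and Mt2, the SLC30 and SLC39 zinc transporters, the copper and iron carriers of the SLC31, SLC11 and SLC40 families, and Tfrc, Fth1, Ftl1, Heph, Atp7a, Ireb2 and Aco1. They were picked by symbol, not by a threshold on any measured value. There were 38 of them among the 41813 genes listed, and 31 passed the filter on low counts and were tested.

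RNA was sequenced from 3 activated and 3 non-activated libraries of bone marrow-derived dendritic cells labelled CD11c+ and MHCIIhigh. By the series design all cells had been given LPS, a bacterial ligand of TLR4, and had shared a culture with CD4+ OT-II T cells for 24 h. The peptide OVA323-339, which OT-II T cells recognise on MHC class II, had been loaded on 1 group of cells and not on the other. The sample labels instead list LPS for the activated cells and no stimulation for the rest, so the groups carry the names of the sample titles here. No strain, age or genotype of the dendritic cells is given in the sources used here, nor how dendritic and T cells were parted before RNA extraction. A further 4 samples, labelled ATAC-seq, were not analysed here.

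Each library held 21338012 to 27404937 expected counts in sum. All 14 dendritic cell markers passed the filter and 7 were higher in activated cells, with Cd74 at a mean of 7327 CPM (expected counts scaled to library size with TMM factors) and Itgax, which encodes CD11c, at 198.0 to 442.1 CPM in activated libraries, against 294.8 to 437.4 CPM in non-activated libraries. Both libraries numbered 1 stood apart in the T cell receptor genes: Trac had 7420 CPM in activated replicate 1 and 7444 CPM in non-activated replicate 1, against 2.73 to 27.8 CPM in the other 4 libraries. Trbc2 followed it, at 106.8 and 105.6 CPM against 0.504 to 1.88 CPM. The T cell receptor signalling chains Cd3e, Cd3d and Cd3g did not follow, at 0 to 1.90 CPM in all 6 libraries. The other 14 T cell markers summed to 35.4 to 62.6 CPM in activated libraries, against 30.8 to 56.0 CPM in non-activated libraries, and 3 of the 9 T cell markers tested, Cd247, Lck and Zap70, were higher in activated cells. Counts of calls among the metal genes and the pathway lists are therefore also given without both libraries numbered 1. Mast cell and basophil markers summed to 26.5 to 45.3 CPM in activated libraries, against 79.5 to 91.6 CPM in non-activated libraries, where Kit and Gata2, both lower in activated cells, carried nearly all of it and Tpsb2 and Cma1 were at 0. Macrophage and monocyte markers, among which Mertk and Vcam1 were higher and Fcgr1 lower in activated cells, summed to 2603 to 3393 CPM in activated libraries, against 2385 to 3143 CPM in non-activated libraries. B cell, NK cell and neutrophil markers summed to at most 14.6 CPM in activated libraries, against at most 24.4 CPM in non-activated libraries, with NK cell markers highest. Erythroid markers, which would bring their own iron genes, summed to 0.653 to 1.23 CPM in activated libraries, against 0.0811 to 0.609 CPM in non-activated libraries. The part of these other markers in the results was not tested.

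Cells keep free zinc, copper and iron scarce. Zinc enters the cytosol through SLC39 (ZIP) carriers and leaves it through SLC30 (ZnT) carriers, and metallothioneins bind what is in excess; the sensor MTF1 induces metallothionein genes and Slc30a1 when zinc rises. Iron arrives with transferrin, is stored in ferritin and leaves through ferroportin, while the iron regulatory proteins tune the messenger RNAs of several of these genes. Dendritic cells are known to shift the expression of zinc carriers after LPS, and changes in free zinc are known to influence their display of MHC class II.

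Of the 31 tested metal-handling genes 5 rose in activated cells, 4 of them among the 18 zinc carriers tested (22.2% of those carriers). The 4 were the vesicular carrier Slc30a4 (1.53-fold), the Golgi carrier Slc30a7 (1.23-fold) and the importers Slc39a1 (1.54-fold) and Slc39a14 (1.64-fold). The remaining gene was Aco1 (1.395-fold), which encodes iron regulatory protein 1. No tested gene fell in edgeR under the unpaired model, where 1, Ftl1, was lower at an unadjusted p under 0.05; DESeq2 also called that 1 gene lower. The other 26 tested genes did not pass, among them both metallothioneins, all 3 copper carriers, both ferritin chains and ferroportin. The 5 calls were 16.1% of the 31 genes tested, beside 27.6% of all 13946 genes tested in edgeR's quasi-likelihood test with Benjamini-Hochberg adjustment at 0.05. Of all genes, 15.9% were higher and 11.7% lower. In a bulk sample, fewer cells of a type and less RNA per cell cannot be told apart.

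Changes were small across the 31 genes, with log2 fold changes from -0.46 (Mt1) to 0.71 (Slc39a14) and a median of 0.04, beside 0.01 over all genes tested. The CPM of the groups did not overlap in 7 of the 31, 6 higher and 1 lower, where 44.7% of all genes tested were so separated (23.9% higher and 20.7% lower). Without both libraries numbered 1, the same 5 genes passed together with Slc30a6 and 0 were lower, beside 23.3% of 14027 genes tested in that fit (12.9% higher and 10.4% lower). Higher genes were 57.6% of all calls, and 44.1% where libraries were scaled by their totals alone, a scaling under which 4 metal genes were higher and 2 lower.

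Sample titles share the numbers 1 to 3 across groups, and same-numbered libraries deviated together. With that number as a block, 8 of the 31 metal genes were higher and 4 lower (38.7%), beside 37.2% of all genes tested, 20.0% higher and 17.2% lower. The block added Slc30a6, Slc30a9 and Slc39a6 to the higher genes. The 4 lower ones were Mt1, Mt2, Slc30a1 and the iron carrier Slc11a2.

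**Figure D1:**
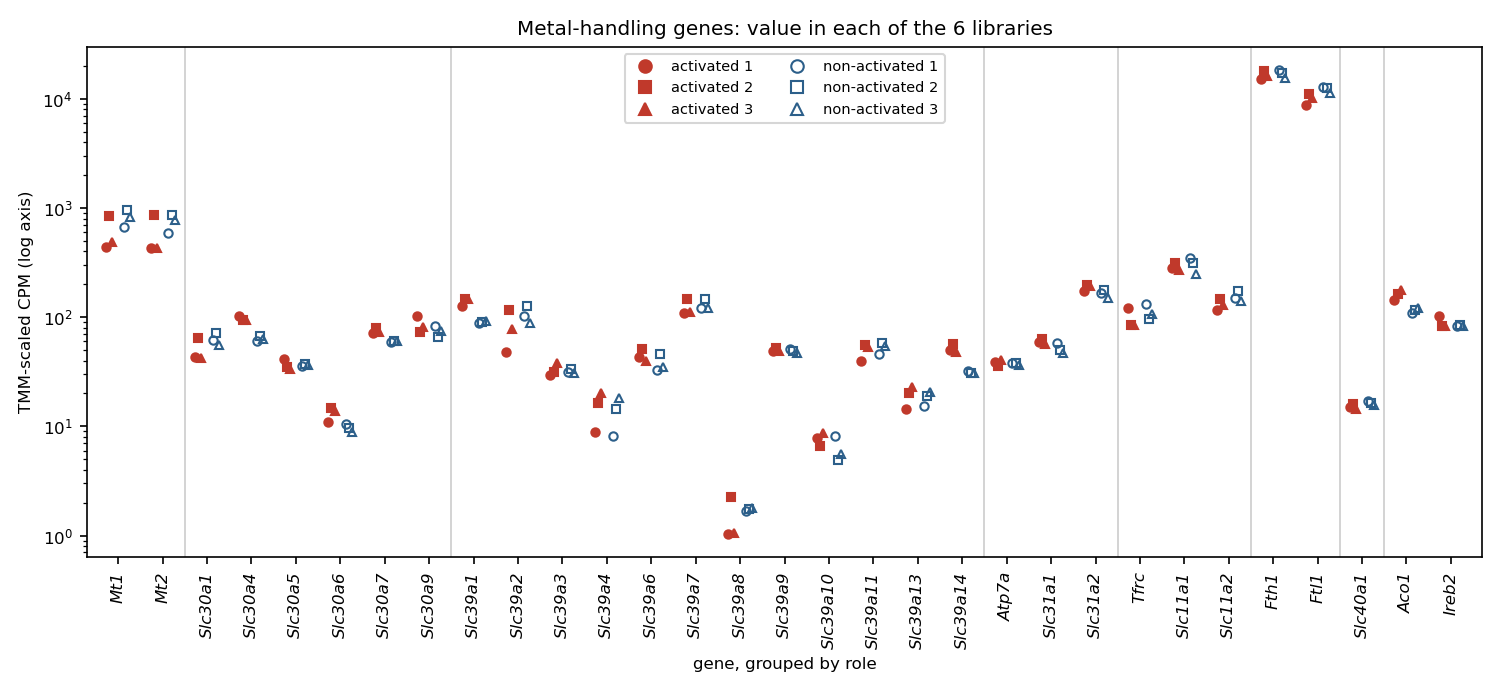
CPM (TMM-scaled, log axis) of the 31 tested genes in each library, grouped by role, with filled red symbols for activated and open blue symbols for non-activated libraries and 1 symbol shape per replicate number. Levels run from 1.04 CPM for Slc39a8 to 18277 CPM for Fth1, and groups are apart in 7 genes such as Slc30a4, Slc39a1 and Slc39a14.

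**Figure D2:**
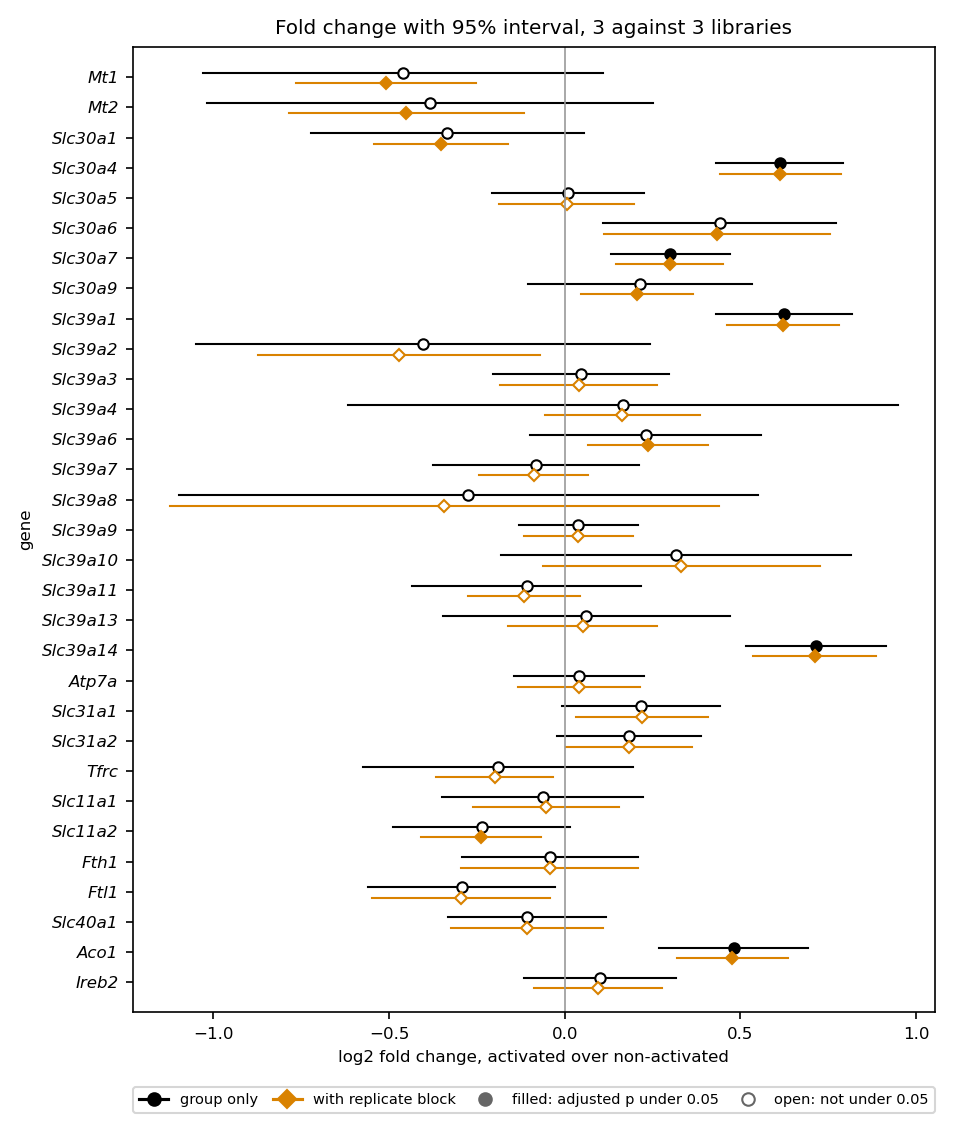
Log2 fold change (activated over non-activated) and its 95% interval for the 31 tested genes, with black circles for the model with group only and orange diamonds for the model with the replicate block; filled symbols have an adjusted p under 0.05. Mt1, Mt2 and Slc30a1 lie left of 0 with open circles and filled diamonds, and Slc30a4, Slc39a1, Slc39a14 and Aco1 lie right of 0 with both filled.

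Mt1 and Mt2, the cysteine-rich proteins that bind zinc and copper, were among the most abundant transcripts of these cells, at rank 41 and 37 of all genes by mean TPM, a level per transcript length. Listing replicates 1 to 3 in order, here and below, Mt1 had 436.6, 852.5 and 492.8 CPM in activated libraries, against 670.9, 962.2 and 819.0 CPM in non-activated libraries. Activated replicate 2 stood well above the other activated libraries and above the non-activated libraries 1 and 3, so the groups overlapped. Activated cells averaged 593.9 ± 225.6 CPM, against 817.4 ± 145.6 CPM in non-activated cells (SD, n = 3 each), a log2 fold change of -0.46 ± 0.25 (SE, 95% interval -1.03 to 0.11; edgeR adjusted p = 0.209). In each same-numbered pair the activated library was lower, and with the replicate block Mt1 passed (log2 -0.51, edgeR adjusted p = 0.00834).

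Mt2 had 427.0, 863.4 and 428.3 CPM in activated libraries, against 595.5, 864.4 and 783.2 CPM in non-activated libraries. The pattern was that of Mt1, with both replicates 2 at nearly the same level. Its log2 fold change of -0.38 ± 0.28 did not pass (edgeR adjusted p = 0.347), and with the block it was -0.45 (edgeR adjusted p = 0.0417). The Mt1 to Mt2 ratio of TPM was 0.934 ± 0.0697 in activated and 0.969 ± 0.0405 in non-activated libraries (two-sided exact permutation p = 0.5; 3 against 3 libraries cannot go below 0.1). Together the pair took 0.0848%, 0.164% and 0.0904% of all counts in activated libraries, against 0.129%, 0.184% and 0.169% in non-activated libraries (exact permutation p = 0.2).

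Slc30a1, the carrier that exports zinc across the plasma membrane, had 43.3, 64.5 and 42.2 CPM in activated libraries, against 61.3, 71.5 and 56.2 CPM in non-activated libraries. Activated replicate 2 was again the highest of its group, above 2 of the non-activated libraries. The log2 fold change was -0.33 ± 0.17 (95% interval -0.72 to 0.05; edgeR adjusted p = 0.182), and with the block -0.35 (edgeR adjusted p = 0.0113). Leaving out activated replicate 2 alone also let all 3 genes pass as lower, at log2 -0.83 for Mt1, -0.82 for Mt2 and -0.57 for Slc30a1 (edgeR adjusted p = 0.01, 0.0106 and 0.0115). Without both libraries numbered 1, none of the 3 passed (log2 -0.42, -0.37 and -0.28).

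The promoters of these 3 genes are shown because MTF1, the zinc sensor, is known to act on them through metal response elements, whose core is TGCACNC or TGCGCNC. Capitals mark each match to either core on either strand, and the sequences are RefSeq's on GRCm38.p6, plus strand, set by the start that the RefSeq promoter table gives. For Mt1 (94179089) and Slc30a1 (191906781) that start lies inside the gene's full range, so part of the stretch before it belongs to the gene; for Mt2 it is the first base of the gene (94172618). Mt1 (gene at chr8:94178883-94180327) is shown from chr8:94178839-94179088 and, after that start, chr8:94179089-94179118. Mt2 (chr8:94172618-94173567) is shown from chr8:94172368-94172617 and chr8:94172620-94172649. Slc30a1 (chr1:191906697-191913248) is shown from chr1:191906531-191906780 and chr1:191906809-191906830.
Mt1 before the start: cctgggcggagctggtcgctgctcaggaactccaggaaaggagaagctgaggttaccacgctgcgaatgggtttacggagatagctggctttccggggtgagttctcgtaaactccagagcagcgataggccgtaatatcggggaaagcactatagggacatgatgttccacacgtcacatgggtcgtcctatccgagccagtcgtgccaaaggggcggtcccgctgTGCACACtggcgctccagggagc
Mt1 after the start: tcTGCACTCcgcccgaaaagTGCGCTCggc
Mt2 before the start: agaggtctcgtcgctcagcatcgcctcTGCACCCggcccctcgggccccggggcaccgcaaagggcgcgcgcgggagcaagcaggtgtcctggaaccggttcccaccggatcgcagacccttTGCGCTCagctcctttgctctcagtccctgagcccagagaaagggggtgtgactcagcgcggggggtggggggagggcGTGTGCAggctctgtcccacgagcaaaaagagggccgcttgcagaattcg
Mt2 after the start: tcGTGCGCAggcccaggggcgtgtgctggc
Slc30a1 before the start: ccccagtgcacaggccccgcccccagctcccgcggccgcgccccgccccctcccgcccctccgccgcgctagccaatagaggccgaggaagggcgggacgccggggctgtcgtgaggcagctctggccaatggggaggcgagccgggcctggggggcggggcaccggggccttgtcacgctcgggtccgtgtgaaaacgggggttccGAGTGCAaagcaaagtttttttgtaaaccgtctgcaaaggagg
Slc30a1 after the start: ccGAGCGCAgtcgccgcggacg

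In windows of 300 bases, 250 before the start and 50 after it, Mt1 held 3 matches, Mt2 held 4 and Slc30a1 held 2. Relative to the annotated start used, Mt1 had 1 of its 3 before it, Mt2 had 3 of 4 and Slc30a1 had 1 of 2. Where another start is in use, a match listed as after the start may lie before it. Matches past the end of a window, chr8:94179138 for Mt1, were not counted. These starts are annotated ones, and whether transcription began there in these cells was not tested. Of all 32851 windows of that length, 25.7% held at least 1 match, 7.11% at least 2 and 1.97% at least 3. A window was at hand for 31 of the 38 genes, and 17 of them held a match in at least 1 window. This is a count of genes, and a gene such as Slc39a11 can have more than 1 window. It is therefore not on the scale of the shares of windows above, and enrichment was not tested. The 17 included Slc30a4 with 3 matches and Aco1 with 1. They also included Slc30a2, Slc30a3, Slc30a10 and Slc39a5, whose expression was too low to be tested. In Tfrc and Slc30a10 a match on 1 strand overlapped a match on the other. These are matches of letters, not sites shown to be bound, and the zinc content of the cells was not measured.

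**Figure D3:**
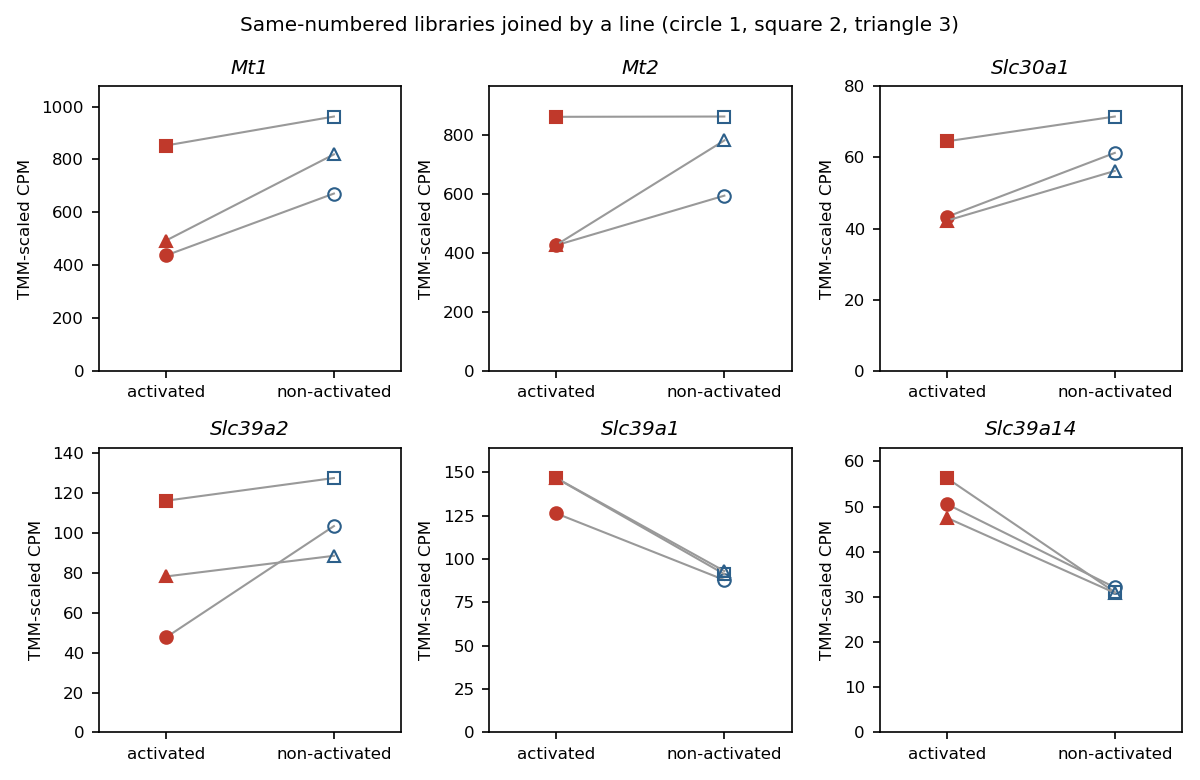
CPM (TMM-scaled) of Mt1, Mt2, Slc30a1, Slc39a2, Slc39a1 and Slc39a14 in activated (filled red) and non-activated (open blue) libraries, with same-numbered libraries joined by a line (circle 1, square 2, triangle 3). For the first 4 genes the activated library is the lower of each pair while the groups overlap, and for Slc39a1 and Slc39a14 all 3 activated libraries lie above all 3 non-activated ones.

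Of the 10 genes of the SLC30 family, most of which carry zinc out of the cytosol or into organelles, 6 were tested. Among these, 2 were higher and 0 lower. Slc30a4 (chr2:122681233-122702663), which loads zinc into endosomal and secretory vesicles, had 102.2, 95.2 and 93.5 CPM in activated libraries, against 60.0, 66.8 and 63.6 CPM in non-activated libraries. All activated libraries were well above all non-activated ones, with little spread in either group. Activated cells averaged 96.96 ± 4.604 CPM, against 63.4 ± 3.41 CPM in non-activated cells (SD, n = 3 each), a log2 fold change of 0.61 ± 0.08 (edgeR adjusted p = 0.000846; 3.46e-08 to 0.0145 over all alternatives).

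Slc30a7 (chr3:115938973-116007414), a carrier of the Golgi, had 71.2, 79.0 and 73.0 CPM in activated libraries, against 59.5, 60.7 and 61.1 CPM in non-activated libraries. The groups did not overlap, and the difference was small, at log2 0.30 ± 0.07 (edgeR adjusted p = 0.018). The call was lost without activated replicate 2 (edgeR adjusted p = 0.0726) or without non-activated replicate 1, 2 or 3 (0.0681, 0.0613 and 0.0587). Scaling by library totals alone also ended it (0.0508), as did limma on TPM (adjusted p = 0.241 to 0.359). Its TPM overlapped between groups, at 41.0, 41.5 and 44.3 in activated and 29.2, 34.9 and 42.6 in non-activated libraries. The effective length that divides those counts differed among libraries, at 2476, 2777 and 2504 bases in activated and 2891, 2561 and 2216 bases in non-activated ones.

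Slc30a6, which pairs with Slc30a5 in the early secretory pathway, is named after its values were seen, since it passed with the block. It had 10.97, 14.7 and 13.8 CPM in activated libraries, against 10.4, 9.71 and 8.84 CPM in non-activated libraries. The lowest activated library lay just above the highest non-activated one. The log2 fold change of 0.44 ± 0.15 missed the threshold (edgeR adjusted p = 0.0541). It passed with the block (0.0416), without activated replicate 1 (0.0188) and without both libraries numbered 1 (0.022).

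Slc30a5 itself had 41.2, 35.3 and 33.7 CPM in activated libraries, against 36.1, 36.9 and 36.5 CPM in non-activated libraries. The activated values lay on both sides of the non-activated ones, at log2 0.01 ± 0.09 (95% interval -0.21 to 0.23; edgeR adjusted p = 0.953). Slc30a9, a mitochondrial zinc exporter, had 103.0, 72.8 and 82.0 CPM in activated libraries, against 82.6, 65.7 and 74.1 CPM in non-activated libraries. In both groups replicate 1 was the highest and replicate 2 the lowest, so the groups overlapped although each activated library exceeded its same-numbered partner. Its log2 fold change of 0.21 ± 0.14 did not pass (edgeR adjusted p = 0.295), and with the block it did (0.0488).

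Summed over the SLC30 genes, TPM was 197.8, 181.1 and 182.5 in activated libraries, against 161.3, 160.4 and 166.7 in non-activated libraries. The groups did not overlap, and the exact permutation p of 0.1 is the smallest that 3 against 3 libraries allow. The remaining 4 genes of the family were not tested. Slc30a2 had 11, 1 and 12 counts in activated and 4, 7 and 7 in non-activated libraries. Slc30a3 had 4 counts in activated replicate 3 and 0 elsewhere, and Slc30a8 and Slc30a10 had 0 counts in all 6 libraries, which allows up to 0.11 to 0.141 CPM per library, counting error only.

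Of the 14 SLC39 genes, which bring zinc into the cytosol, 12 were tested, and 2 were higher and 0 lower. Slc39a1 (chr3:90248190-90253613), a widely expressed importer of the plasma membrane, had 126.2, 146.5 and 146.6 CPM in activated libraries, against 87.9, 91.2 and 93.0 CPM in non-activated libraries. Every activated library lay well above the highest non-activated one. Activated cells averaged 139.8 ± 11.8 CPM, against 90.7 ± 2.59 CPM in non-activated cells (SD, n = 3 each), a log2 fold change of 0.62 ± 0.08 (edgeR adjusted p = 0.0011; 2.2e-08 to 0.0227 over all alternatives).

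Slc39a14 (chr14:70303467-70351452), which carries zinc, manganese and iron not bound to transferrin, had 50.6, 56.3 and 47.5 CPM in activated libraries, against 32.1, 31.1 and 30.9 CPM in non-activated libraries. The groups were far apart, and the non-activated libraries were nearly equal. Activated cells averaged 51.5 ± 4.47 CPM, against 31.3 ± 0.651 CPM in non-activated cells (SD, n = 3 each). At log2 0.71 ± 0.09, this was the largest fold change among the 31 tested metal genes (edgeR adjusted p = 0.000631; 1.31e-08 to 0.0458 over all alternatives).

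Slc39a2, a zinc importer of the plasma membrane, had 47.6, 116.2 and 78.2 CPM in activated libraries, against 103.5, 127.6 and 88.6 CPM in non-activated libraries. The activated libraries spread widely and overlapped the others, while each was below its partner. The log2 fold change of -0.40 ± 0.28 did not pass (edgeR adjusted p = 0.331). It passed without activated replicate 2 (log2 -0.78, edgeR adjusted p = 0.0415), and with the block it did not (0.0663). Slc39a6, an importer that has been studied in dendritic cells given LPS, had 42.8, 51.1 and 39.7 CPM in activated libraries, against 33.0, 45.8 and 35.1 CPM in non-activated libraries. Replicate 2 was the highest in both groups, and the groups overlapped. Its log2 fold change of 0.23 ± 0.14 did not pass (edgeR adjusted p = 0.276), and with the block it did (0.037).

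Among carriers that release zinc from organelles, Slc39a7, which acts in the endoplasmic reticulum, had 109.9, 145.4 and 112.5 CPM in activated libraries, against 122.4, 146.3 and 120.8 CPM in non-activated libraries. Slc39a9, of the secretory pathway, had 49.4, 52.5 and 49.2 CPM in activated libraries, against 51.0, 49.0 and 47.1 CPM in non-activated libraries. Slc39a13, of the Golgi and its vesicles, had 14.5, 20.0 and 22.7 CPM in activated libraries, against 15.3, 19.0 and 20.4 CPM in non-activated libraries. In all 3 the groups overlapped, at log2 -0.08, 0.04 and 0.06 (edgeR adjusted p = 0.675, 0.744 and 0.835). A short stretch of Slc39a9 (229 bases) is also part of Erh, and the protocols do not say that strand was kept.

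Slc39a11 had 39.4, 55.1 and 53.2 CPM in activated libraries, against 46.0, 58.2 and 55.0 CPM in non-activated libraries. Slc39a3, an importer close to Slc39a1 and Slc39a2 in sequence, had 29.6, 31.7 and 38.3 CPM in activated libraries, against 31.8, 33.7 and 30.9 CPM in non-activated libraries. Both overlapped between groups, at log2 -0.11 and 0.05 (edgeR adjusted p = 0.616 and 0.793). Slc39a4, best known for zinc uptake in the gut, had 8.96, 16.3 and 20.3 CPM in activated libraries, against 8.15, 14.3 and 18.2 CPM in non-activated libraries. The replicate number and not the group separated its values, with both libraries numbered 1 lowest and both numbered 3 highest. Each activated library was slightly above its partner, at log2 0.17 ± 0.34 (edgeR adjusted p = 0.763) and 0.16 ± 0.10 with the block (0.217).

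The last 2 tested members of the family were low: Slc39a8 ranged from 1.04 to 2.26 CPM in activated libraries, against 1.68 to 1.78 CPM in non-activated libraries. Slc39a10 ranged from 6.57 to 8.74 CPM in activated libraries, against 4.92 to 8.11 CPM in non-activated libraries. Neither passed (edgeR adjusted p = 0.617 and 0.322). Slc39a5 and Slc39a12 had 0 counts in all 6 libraries. Summed over the family, TPM was 335.0, 504.3 and 427.7 in activated libraries, against 376.5, 464.6 and 396.1 in non-activated libraries, and the groups overlapped (exact permutation p = 1.0).

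The 3 copper genes did not pass. Slc31a1, the high-affinity copper importer, had 58.7, 63.8 and 56.7 CPM in activated libraries, against 57.9, 49.6 and 46.6 CPM in non-activated libraries. Slc31a2, its relative of intracellular vesicles, had 172.7, 195.9 and 192.0 CPM in activated libraries, against 165.6, 177.5 and 150.9 CPM in non-activated libraries. Both were higher in the activated library of each pair but overlapped between groups, at log2 0.22 ± 0.10 and 0.18 ± 0.09 (edgeR adjusted p = 0.14 and 0.17). Atp7a, the pump that delivers copper to the Golgi and out of the cell, had 38.99, 35.8 and 40.4 CPM in activated libraries, against 38.1, 37.7 and 36.2 CPM in non-activated libraries. Its values were close in all 6 libraries, at log2 0.04 ± 0.08 (95% interval -0.14 to 0.23; edgeR adjusted p = 0.751).

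None of the 3 iron uptake genes passed under the unpaired model. Tfrc, the receptor that takes up transferrin, had 122.0, 85.0 and 84.9 CPM in activated libraries, against 130.8, 95.4 and 107.0 CPM in non-activated libraries. Each activated library was below its partner and replicate 1 was the highest of both groups. Its log2 fold change was -0.19 ± 0.17 (edgeR adjusted p = 0.444). Slc11a2, which moves iron out of endosomes into the cytosol, had 116.6, 147.5 and 130.0 CPM in activated libraries, against 150.9, 172.0 and 141.5 CPM in non-activated libraries. The groups overlapped while each activated library was below its partner, at log2 -0.24 ± 0.11 (edgeR adjusted p = 0.149). With the block Slc11a2 passed as lower (0.0356), as it did with library totals alone (log2 -0.31, edgeR adjusted p = 0.0462). Slc11a1, which pumps metals out of phagosomes and limits the growth of bacteria there, had 283.0, 313.9 and 269.8 CPM in activated libraries, against 345.1, 310.9 and 249.4 CPM in non-activated libraries. Its values interleaved, at log2 -0.06 (edgeR adjusted p = 0.751).

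Ferritin stores iron in shells of heavy and light chains. Fth1, the heavy chain with ferroxidase activity, had the highest mean TPM of all genes and Ftl1, the light chain, ranked 3. Fth1 had 15329, 18132 and 16057 CPM in activated libraries, against 18277, 17163 and 15556 CPM in non-activated libraries. The groups overlapped widely, at log2 -0.04 ± 0.11 (95% interval -0.29 to 0.21; edgeR adjusted p = 0.812).

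Ftl1 had 8804, 11052 and 10060 CPM in activated libraries, against 12767, 12673 and 11208 CPM in non-activated libraries. All 3 activated libraries lay below all 3 non-activated ones, the only tested metal gene separated in that direction. Its log2 fold change of -0.29 ± 0.12 missed the threshold (95% interval -0.56 to -0.03; unadjusted p = 0.0347, edgeR adjusted p = 0.0976). It passed in DESeq2 (log2 -0.31, adjusted p = 0.0207) and with library totals alone (log2 -0.37, edgeR adjusted p = 0.0319). The near-identical copy Ftl1-ps1 held 1048 to 1327 counts in activated libraries, against 1507 to 1840 in non-activated libraries, and how the deposited counts divided reads between the copies cannot be checked here.

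Set against each other within a library, the TPM of Fth1 was 2.00, 1.88 and 1.83 times that of Ftl1 in activated libraries, against 1.64, 1.55 and 1.59 times in non-activated libraries. The ratio was higher in every activated library than in any non-activated one. It averaged 1.90 ± 0.0855 in activated and 1.60 ± 0.0448 in non-activated cells (SD, n = 3 each; two-sided exact permutation p = 0.1, the smallest this design allows). Both chains together took 2.37%, 2.79% and 2.56% of all counts in activated libraries, against 3.16%, 3.01% and 2.82% in non-activated libraries. The groups did not overlap (exact permutation p = 0.1).

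Slc40a1, ferroportin, the only known iron exporter of mammalian cells, is named for that role and not by its level. It ranged from 14.5 to 16.0 CPM in activated libraries, against 15.6 to 16.9 CPM in non-activated libraries, at log2 -0.11 ± 0.10 (edgeR adjusted p = 0.459). Heph, a ferroxidase that works with ferroportin in the gut, had 0, 4 and 0 counts in activated and 1, 2 and 0 in non-activated libraries and was not tested.

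The 2 iron regulatory proteins differed in what the test found. Aco1 (chr4:40143265-40199009), whose product is cytosolic aconitase or, without its iron-sulfur cluster, iron regulatory protein 1, had 144.6, 163.8 and 177.5 CPM in activated libraries, against 110.1, 117.4 and 120.8 CPM in non-activated libraries. All activated libraries were above all non-activated ones. Activated cells averaged 162.0 ± 16.5 CPM, against 116.1 ± 5.47 CPM in non-activated cells (SD, n = 3 each), a log2 fold change of 0.48 ± 0.09 (edgeR adjusted p = 0.00592). Among all alternatives, only limma on TPM with no filter on low values ended the call (adjusted p = 0.0652). Ireb2, iron regulatory protein 2, had 101.5, 83.4 and 83.7 CPM in activated libraries, against 83.4, 85.0 and 82.2 CPM in non-activated libraries. Activated replicate 1 stood out and the other 5 libraries were level, at log2 0.10 (edgeR adjusted p = 0.474). Whether the 2 genes differed in their response was not tested.

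Ranked by mean TPM over the 6 libraries, Fth1 (35890 TPM) stood above Ftl1 (20750 TPM), and both stood above Mt2 (2957 TPM) and Mt1 (2797 TPM), whose ranges overlapped. Next came Slc11a1 (306.1 TPM) and Slc31a2 (157.9 TPM), each apart from its neighbours in every library. From Slc39a7 (99.0 TPM) through Slc11a2, Slc39a2, Slc39a1, Tfrc, Slc30a9 and Aco1 (59.8 TPM), neighbours in the order overlapped. Slc30a7 (38.9 TPM) overlapped Slc39a11, and from Slc30a1 (23.4 TPM) down to Slc30a6 (8.49 TPM) each gene overlapped the next. Slc39a10 (2.39 TPM) and Slc39a8 (0.740 TPM) closed the order. Among zinc carriers the highest SLC39 gene thus stood at 99.0 TPM and the highest SLC30 gene, Slc30a9, at 61.0 TPM.

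**Figure D4:**
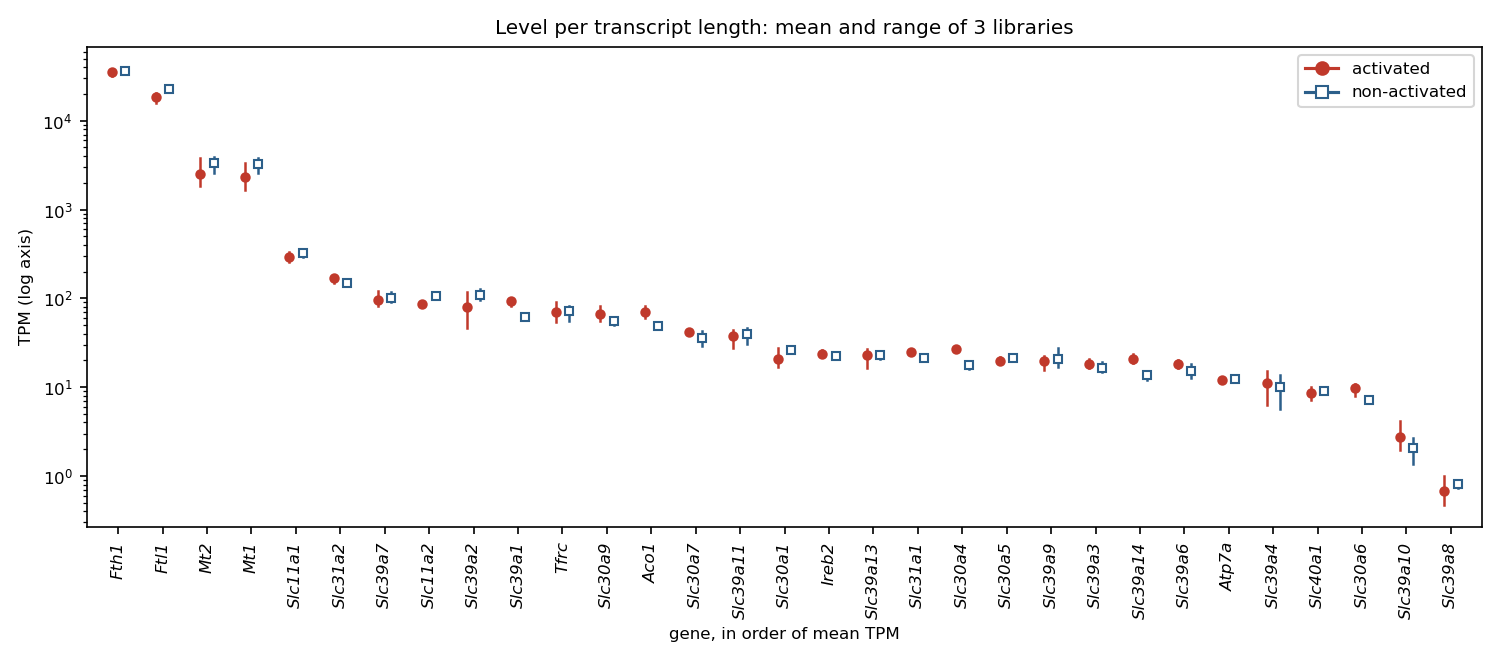
TPM (log axis) of the 31 tested genes in order of their mean over 6 libraries, with the mean (symbol) and range (line) of 3 activated libraries (red circles) and 3 non-activated libraries (blue squares). Fth1 and Ftl1 stand at 15930 TPM or more, the metallothioneins between 1674 and 3882 TPM, and the other genes at 358.4 TPM or less.

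Genes that act beside these carriers were counted in 4 lists. Of all genes tested, 27.6% passed in the main fit, 15.9% higher and 11.7% lower. With the replicate block it was 37.2%, 20.0% higher and 17.2% lower. Without both libraries numbered 1 it was 23.3%, 12.9% higher and 10.4% lower. Of 24 tested genes of iron uptake, storage, recycling and export, 4 were higher, 8 lower and 12 did not pass, with a median log2 fold change of -0.23 beside 0.01 over all genes. Leaving out 1 library at a time gave 3 to 5 higher and 3 to 8 lower, and leaving out both libraries numbered 1 gave 4 and 7. With the replicate block it was 4 higher and 10 lower, Steap3 and Flvcr1 being added. The number of lower genes was 5 without non-activated replicate 1, 3 without replicate 2 and 4 without replicate 3 of that group. Without non-activated replicate 2, Hmox2, Fbxl5, Fech, Mcoln1 and Bach1 lost their calls.

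Iron import into mitochondria is shared by a pair of carriers that moved apart. Slc25a37 (mitoferrin 1) had 49.7, 56.6 and 53.6 CPM in activated libraries, against 30.4, 27.1 and 28.2 CPM in non-activated libraries. Slc25a28 (mitoferrin 2) had 20.5, 18.5 and 18.3 CPM in activated libraries, against 27.5, 33.1 and 30.5 CPM in non-activated libraries. Neither gene overlapped between groups, and the first was 1.87-fold higher (edgeR adjusted p = 0.000198) and the second 0.630 times the non-activated level (0.002). Fech, which inserts iron into heme, was 0.811 times the non-activated level (edgeR adjusted p = 0.0157), a call lost without non-activated replicate 2 or 3 (0.028 to 0.0651 over the 6 fits that leave out a library). Alas1, the first enzyme of heme synthesis, was 1.59-fold higher (edgeR adjusted p = 0.0428). That call held only without activated replicate 1 among those 6 fits (0.00164 to 0.146). With library totals alone Alas1 lost its call too (edgeR adjusted p = 0.0537). Limma on TPM called neither Alas1 nor Fech (adjusted p up to 0.147 and 0.0883).

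Hamp encodes hepcidin, the hormone that makes ferroportin degrade. It had 96.9, 148.9 and 91.7 CPM in activated libraries, against 46.9, 58.7 and 39.9 CPM in non-activated libraries. Every activated library exceeded every non-activated one, and Hamp was 2.32-fold higher (edgeR adjusted p = 0.00334). Trf, transferrin, had 203.2, 243.4 and 221.9 CPM in activated libraries, against 109.9, 143.6 and 134.4 CPM in non-activated libraries, and was 1.72-fold higher without overlap (edgeR adjusted p = 0.0017). Hfe, a partner of the transferrin receptor, was low and fell to 3.82 ± 1.11 CPM in activated cells, against 8.25 ± 1.66 CPM in non-activated cells (SD, n = 3 each; edgeR adjusted p = 0.011). Limma on TPM did not call it (adjusted p up to 0.146). Pcbp2, an RNA-binding protein that also hands iron to other proteins, was 0.755 times the non-activated level (edgeR adjusted p = 0.00737). Steap3, a ferrireductase of endosomes, split by number more than by group, at 8.33, 2.01 and 1.31 CPM in activated libraries, against 23.1, 4.50 and 2.47 CPM in non-activated libraries. It did not pass (edgeR adjusted p = 0.301), and with the block it did (0.000859).

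Of 20 iron-sulfur cluster assembly genes, all tested, 3 were higher, 2 lower and 15 did not pass (median log2 0.03). With the replicate block 4 were higher and 4 lower, with Nubp1 added to the higher genes and Nfu1 and Fdx1 to the lower ones (edgeR adjusted p = 0.0198, 0.0493 and 0.0292). Without both libraries numbered 1 it was 2 and 2, Iscu losing its call (edgeR adjusted p = 0.0581). Ciapin1, which passes electrons to the cytosolic assembly machinery, had 95.7, 96.5 and 91.9 CPM in activated libraries, against 52.3, 50.8 and 39.3 CPM in non-activated libraries. The groups were far apart, at 2.00-fold (edgeR adjusted p = 0.000449). The scaffold gene Iscu and Isca2, both of mitochondrial assembly, were 1.28-fold and 1.36-fold higher (edgeR adjusted p = 0.0253 and 0.0163). Mms19, which hands clusters to nuclear proteins, was 0.744 times the non-activated level and the cochaperone gene Hscb 0.684 times (edgeR adjusted p = 0.00518 and 0.0324). Iscu, Isca2 and Hscb each lost the call in 4 of the 6 fits that leave out a library, with adjusted p up to 0.0831, 0.0679 and 0.117. Those libraries were activated replicates 2 and 3 and non-activated replicates 1 and 3 for Iscu, with non-activated replicate 2 in place of 3 for Isca2. For Hscb they were activated replicates 1 and 3 and non-activated replicates 2 and 3, and limma on TPM did not call Mms19 (adjusted p up to 0.119).

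Of 12 tested copper chaperones and copper enzymes, 2 were higher, 1 lower and 9 did not pass (median log2 -0.10). With the replicate block 3 were higher, Sco1 being added (edgeR adjusted p = 0.0324), and 1 was lower. Without both libraries numbered 1 it was 2 higher and 0 lower, with Sco1 gained and Cox17 and Atox1 lost (edgeR adjusted p = 0.0431, 0.205 and 0.0804). Atp7b, a copper pump related to Atp7a, was very low, with 1.56, 1.13 and 2.20 CPM in activated libraries, against 0.305, 0 and 0 CPM in non-activated libraries (edgeR adjusted p = 0.0119). Cox17, which delivers copper to cytochrome c oxidase, was 1.18-fold higher (edgeR adjusted p = 0.0431) and lost the call in all 6 fits that leave out a library (0.0827 to 0.148). Atox1, which hands copper to the pumps, was 0.826 times the non-activated level (edgeR adjusted p = 0.0252). That call ended when activated replicate 2, non-activated replicate 1 or non-activated replicate 3 was left out (0.0355 to 0.0961 over the 6 fits).

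Of the 7 zinc sensing and metal sequestration genes, 3 were tested, and 1 was higher (median log2 0.21), with the block and without both libraries numbered 1 as well. Mtf1, the sensor gene named above, had 67.0, 63.9 and 67.9 CPM in activated libraries, against 52.8, 50.2 and 54.0 CPM in non-activated libraries. The groups did not overlap, and it was 1.27-fold higher (edgeR adjusted p = 0.00891), though limma on TPM did not call it (adjusted p up to 0.538). Lcn2 and Trpm7 did not pass (edgeR adjusted p = 0.149 and 0.663). The neutrophil genes S100a8 and S100a9, which bind zinc and manganese, ranged from 0 to 0.365 CPM and were not tested.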

How the data were processed

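Per the labels' protocols, a NEBNext Ultra kit turned 200 ng of RNA per sample into libraries read as single 60 nt reads; nothing says that strand was kept. The authors deposited RSEM-style gene tables that give, per the file headers, an expected count, TPM and FPKM for each gene, with a gene length and an effective length. The submitters' processing notes name the build GRCm38, while file names carry a human build over mouse gene IDs; no aligner for the RNA reads is named in the sources used here. Symbols matched 41597 of 41813 IDs; coordinates are RefSeq's on GRCm38.p6. Genes with no symbol took at most 0.0452% of a library's counts.

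Expected counts were rounded and tested in edgeR 4.0.16 (R 4.3.3): filterByExpr, TMM factors, and a quasi-likelihood test with group as the only term, adjusted by Benjamini-Hochberg over 13946 genes, two-sided, threshold 0.05. Standard errors are the log2 fold change over the root of F. Single sums and ratios were tested by exact permutation in SciPy 1.17.1. Alternatives were DESeq2 1.42.0, other scalings and filters, limma 3.58.1 on log2 of TPM plus 1 or 0.1, left-out libraries, annotated copies added to their gene, and a replicate block. The deposited FPKM served only an alternative ratio. Same-numbered libraries deviated together (correlations 0.40, 0.31 and 0.19, against -0.31 to 0.04 otherwise). The numbers may thus pair the samples, but the main model did not use them. Results with the replicate block are given beside it as an alternative. What a number marks, and whether replicates came from separate cultures or animals, is not stated, and p-values cover no more than the spread among these libraries, which may be technical. Every pair of libraries differed beyond sampling noise (chi-square per degree of freedom of 15.3 or more).

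Genes were chosen by symbol, and those that passed or had a mean TPM of at least 10 are given in full; of each pathway list, up to 4 genes with the smallest p in each direction are named. Members and lists were chosen with earlier results of these data known. The procedure was tested on simulated counts. With a common biological coefficient of variation of 16.9%, the spread between libraries and not counting limited all but the lowest genes; floors cover counting error only.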

Additional observations from a re-analysis of the deposited data

How the results depend on the processing

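The calls of Slc30a4, Slc39a1 and Slc39a14 held under every alternative tried, including 1 added after seeing the data (both libraries numbered 1 left out); Slc30a7 and Aco1 did not hold under all, as given above. With the replicate block 12 of the 31 metal genes passed (8 higher, 4 lower), and it changed no other call among them. Leaving out 1 library at a time gave 4 to 8 metal genes, 4 to 6 higher and 0 to 4 lower; 8 and 4 came without activated replicate 2. Ftl1 was the 1 lower gene in DESeq2, and it and Slc11a2 were the 2 with library totals alone. In limma on log2(TPM + 1) with no filter 3 metal genes passed, all 3 higher. Over all genes, leaving out 1 library gave 2679 to 3629 calls, 1586 to 1956 higher and 1061 to 1673 lower; 1061 came without non-activated replicate 2. Limma gave 2516 calls with a pseudocount of 0.1 and 1882 with no filter. It called 1467 genes higher on log2(TPM + 1), 1440 with the pseudocount of 0.1 and 1163 with no filter, and 1076 lower with that pseudocount and 719 with no filter. The causes were not tested. The difference in the Fth1 to Ftl1 ratio kept its direction in all alternatives, from 0.26 to 0.34 when libraries were left out.

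None of the genes that changed sign had passed. Slc30a5 was at log2 -0.0042 in DESeq2, -0.0045 with RLE factors, -0.0667 with library totals, -0.0135 with no filter, -0.1045 and -0.1091 in limma and -0.1093 without both libraries numbered 1. With library totals Slc39a3 was at -0.0293, Slc39a9 at -0.0385, Slc39a13 at -0.0173 and Atp7a at -0.035. In limma with a pseudocount of 1 and 0.1, Slc39a9 was at -0.0423 and -0.0435, Slc39a13 at -0.0036 and -0.0052, and Atp7a at -0.0369 and -0.0396. Without both libraries numbered 1, Slc11a1 was at 0.0413, Fth1 at 0.0455 and Ireb2 at -0.019. With 1 library left out, the ranges were -0.101 to 0.0555 for Slc30a5, -0.0819 to 0.1051 for Slc39a3, -0.1203 to 0.4346 for Slc39a4, -0.238 to 0.008 for Slc39a7 and -0.0077 to 0.0668 for Slc39a9. They were -0.2121 to 0.0116 for Slc39a11, -0.0997 to 0.2102 for Slc39a13, -0.0109 to 0.0733 for Atp7a, -0.1877 to 0.0432 for Slc11a1, -0.1301 to 0.0119 for Fth1 and -0.0182 to 0.1346 for Ireb2. Depth limits Slc39a8 and the 7 genes not tested.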

Other observations

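Level per length and count did not always rank the libraries alike. Tfrc was lower in CPM in each activated library than in its same-numbered partner, whereas its TPM was 89.9, 67.3 and 53.8 in activated libraries, against 79.8, 55.5 and 82.9 in non-activated libraries, higher in the first 2 pairs. Its effective length was 1935, 1841 and 2401 bases in activated libraries, against 2321, 2532 and 1997 bases in non-activated libraries. For Slc39a9 the effective length was 4512, 3455 and 3514 bases in activated libraries, against 4234, 2615 and 4259 bases in non-activated libraries, and non-activated replicate 2, the shortest, had the highest TPM (27.6). The deposited tables do not say which transcripts were counted.

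Mt3, a metallothionein gene best known from the brain, stood far below Mt1 and Mt2 and followed the replicate number. It had 2.86, 11.2 and 6.21 CPM in activated libraries, against 1.45, 12.6 and 7.22 CPM in non-activated libraries. Both libraries numbered 1 were lowest and both numbered 2 highest (edgeR adjusted p = 0.95 between groups).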
